A study of Mus musculus with 18 samples.

Results

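Matrix metalloproteinases are zinc-dependent endopeptidases that cut collagens, elastin, basement membrane proteins and many secreted or membrane proteins, and the tissue inhibitors of metalloproteinases (TIMPs) block their active site. The genes described here are 5 metalloproteinases (Mmp9, Mmp12, Mmp13, Mmp14 and Mmp19) and 3 inhibitors (Timp1, Timp2 and Timp3), taken by name, 8 of the 22598 genes counted. They were measured by RNA-seq in 18 libraries from mouse bone marrow-derived macrophages (BMDMs), macrophages grown from marrow precursors and labelled WT. The 6 groups of 3 libraries, all taken at 18 h, were an untreated control, interferon gamma alone (IFNg), and IFNg with TNF (written TNFa in the title of 1 library), with IL1b, with LPS or with hypoxia (Hypox in the titles). Each of the 4 combined groups thus carried IFNg as well as its second agent, and the IFNg group was the shared reference for all 4. The labels used here give no dose, oxygen level, mouse strain, sex or age, and nothing in them says that replicates are different mice or dishes, so the p-values measure only the spread between these libraries, which may be technical.

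Most metalloproteinases are made as inactive precursors with a propeptide that must be cut off. Secreted members such as Mmp9, Mmp12 and Mmp13 are opened by other proteases, plasmin among them, whereas the membrane-anchored Mmp14 is cleaved inside the cell by the convertase Furin. TIMPs are not interchangeable: Timp1 inhibits membrane-type enzymes such as Mmp14 poorly, while Timp2 inhibits Mmp14 and can also bridge it to the precursor of Mmp2, and Timp3 is held in the matrix and also inhibits the sheddase Adam17. Transcript levels say nothing of protein, secretion, activation or activity, none of which was measured here.

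The deposited gene counts summed to between 12270565 and 20952799 per library, and 11563 genes passed the filter on low counts. The cells carried the macrophage label in their transcripts: all 12 macrophage markers (Csf1r, Adgre1, Cd68 and others) were tested, with a summed level of 14820 to 27430 CPM (counts-per-million of the scaled library total) in every library. The 10 fibroblast and stromal markers together reached 3.18 to 16.9 CPM, with Lum at 0 throughout. Because RNA was taken from bulk cultures, fewer cells of a type and less RNA per cell cannot be told apart for any gene below. A gene is said to have risen or fallen where edgeR's quasi-likelihood test, adjusted by Benjamini-Hochberg over all 11563 genes, gave a p under 0.05. The shares of all genes called depended on how libraries were scaled. Against IFNg alone, TNF changed 2560 genes upward and 2614 downward with TMM scaling, but 1685 and 3985 with the library totals behind the authors' RPKM values. The same totals gave 888 higher and 2564 lower for hypoxia in place of 1556 and 1362, 962 and 1441 for LPS in place of 1184 and 1164, and 1207 and 1796 for IFNg against control in place of 1566 and 1161.

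All of the 8 genes but Timp3 passed the filter, leaving 7 to test. With IFNg alone against control, 4 of the 7 passed the test, 2 higher (Mmp19 and Timp1) and 2 lower (Mmp12 and Timp2), where 23.6% of all genes were called. With TNF added to IFNg, 5 of 7 were called, 4 higher (Mmp12, Mmp13, Mmp14 and Mmp19) and 1 lower (Timp2), against 44.7% of all genes. LPS moved 4 of 7, with Mmp12, Mmp14 and Mmp19 higher and Timp2 lower, against 20.3%. Hypoxia moved 2 of 7, Mmp12 and Mmp13, both higher, against 25.2%. IL1b moved 1 of 7, Mmp14, also higher, in a comparison that called 0.303% of all genes. The median size of change over the 7 genes on the log2 scale was 0.91 for IFNg, 0.78 for TNF, 1.05 for LPS, 0.77 for hypoxia and 0.21 for IL1b, beside 0.39, 0.63, 0.36, 0.41 and 0.17 over all genes tested.

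**Figure D1:**
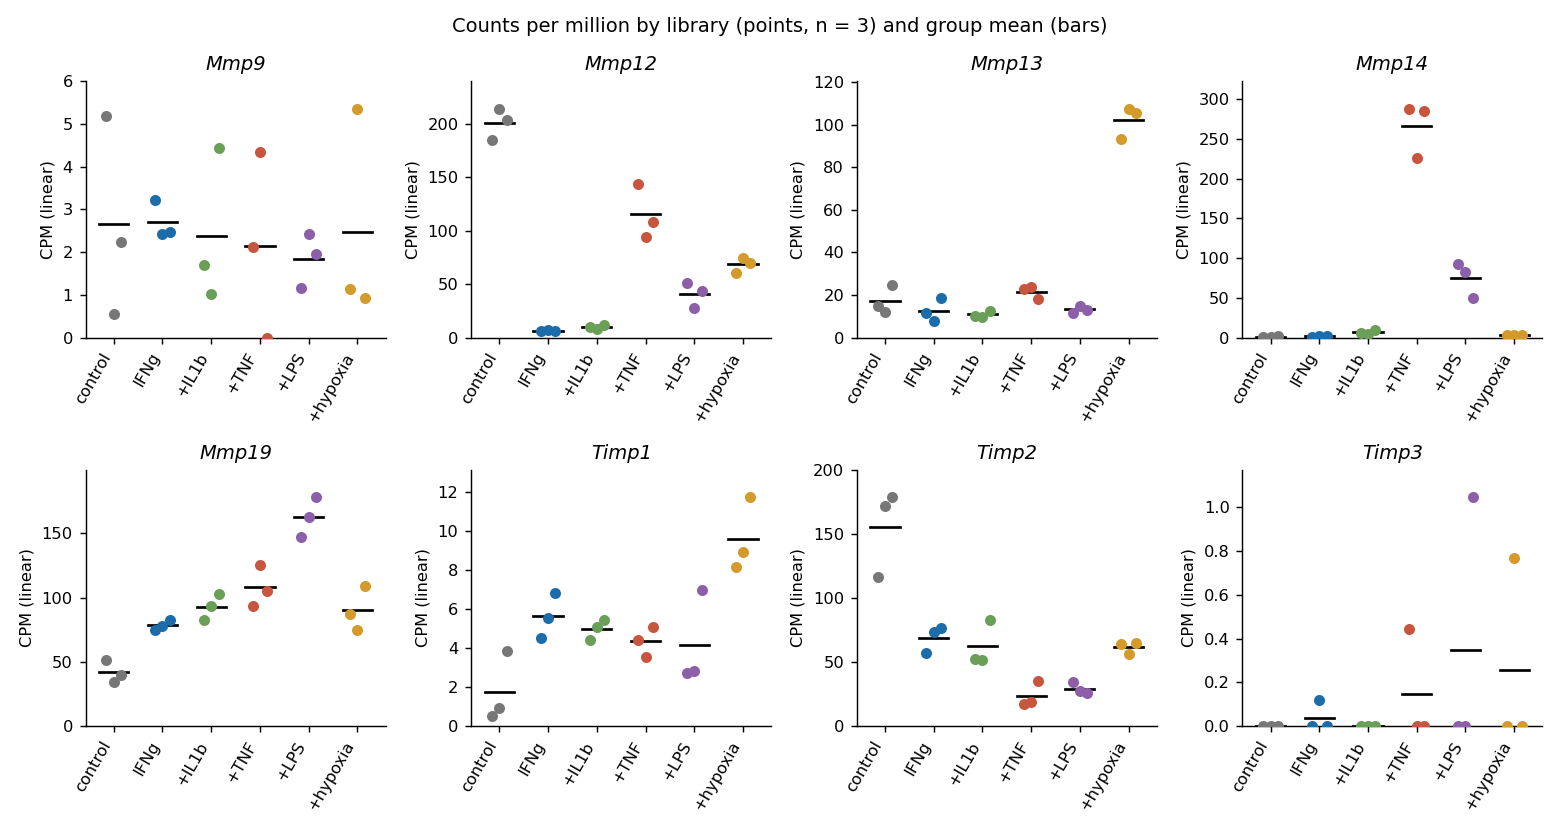
CPM (linear axis from 0, one scale per gene) in each of the 18 libraries (points) for the 8 genes, with the group mean of 3 libraries as a bar; a plus sign marks an addition to IFNg. Mmp12 is lowest with IFNg alone and with IL1b, Mmp14 stands out with TNF (226 to 288 CPM) and Mmp13 with hypoxia (93.1 to 108 CPM), while Timp2 is highest in control.

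**Figure D2:**
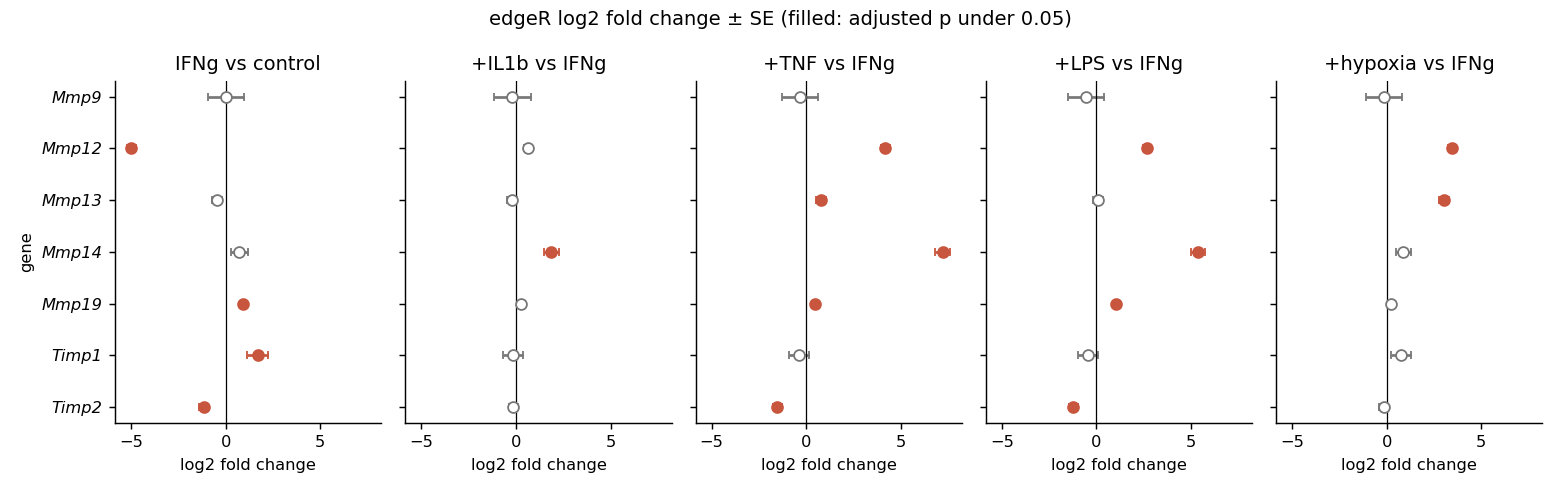
The edgeR log2 fold change with its standard error for the 7 tested genes in the 5 comparisons, IFNg against control and each addition against IFNg; filled red points have an adjusted p under 0.05. Mmp12 lies at -4.98 with IFNg and to the right of 0 in all 4 additions, although not past the threshold with IL1b.

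Mmp12, the macrophage elastase, was the metalloproteinase with the highest level per length in control cells. The gene (ENSMUSG00000049723) lies on the plus strand of mm10 at chr9:7344381-7369499, in the metalloproteinase cluster that also holds Mmp13. RefSeq lists start sites for it that give 2 promoter windows, each from 250 bases before to 50 bases after the start, and both are shown because this gene was called in 4 of the 5 comparisons, the most of the 5 metalloproteinases. Capitals mark matches to any of the 5 motifs searched on both strands: AP-1 (TGANTCA), NF-kappaB (GGG, any 2 letters, TT, any letter, CC), the gamma-activated site (TTCNNNGAA), the core of the hypoxia response element (ACGTG) and the PEA3/ETS site (AGGAAG). Over 32851 mouse promoter windows of the same length, 7.81% held the AP-1 letters, 4.79% NF-kappaB, 8.3% the gamma-activated site, 19.6% the hypoxia element and 35.4% PEA3/ETS. The upstream window (GRCm38.p6 from RefSeq, chr9:7344147-7344446, plus strand) and the downstream window (chr9:7347124-7347423, plus strand) read 5′ to 3′:
Mmp12 upstream start: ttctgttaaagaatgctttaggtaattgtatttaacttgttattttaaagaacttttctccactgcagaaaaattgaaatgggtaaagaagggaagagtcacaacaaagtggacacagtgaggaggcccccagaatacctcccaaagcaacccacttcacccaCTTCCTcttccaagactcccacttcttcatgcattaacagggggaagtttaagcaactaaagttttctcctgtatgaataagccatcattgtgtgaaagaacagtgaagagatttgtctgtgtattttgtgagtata
Mmp12 downstream start: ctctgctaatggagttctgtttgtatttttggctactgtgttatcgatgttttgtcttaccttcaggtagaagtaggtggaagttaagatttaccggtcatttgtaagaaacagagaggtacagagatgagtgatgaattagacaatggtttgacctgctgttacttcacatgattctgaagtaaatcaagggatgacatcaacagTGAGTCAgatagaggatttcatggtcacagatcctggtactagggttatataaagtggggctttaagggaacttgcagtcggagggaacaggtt
The capitals of the first are 1 PEA3/ETS match on the opposite strand, from base -87 to -82, counting the first transcribed base as 0. Those of the second are 1 AP-1 match from -44 to -38. A match describes letters only and is not a measured binding site, and the absence of a match says only that the letters are not in the window.

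Control libraries held 184, 214 and 203 CPM of Mmp12 (replicates 1 to 3). IFNg libraries held 5.94, 6.65 and 6.42 CPM, so the groups did not overlap and lay far apart. The transcript fell by 4.98 on the log2 scale with IFNg (SE 0.22, edgeR adjusted p = 4.12e-16), from 201 ± 15.0 to 6.34 ± 0.363 CPM (mean ± SD, n = 3), which is 31.6-fold lower. Each addition gave a mean level between those of IFNg alone and control, with IL1b nearest to IFNg alone and not called higher than it. The TNF libraries held 144, 94.2 and 108 CPM, 18.2-fold above IFNg alone (log2 fold change 4.19 ± 0.21 SE, adjusted p = 1.06e-14). Under hypoxia the 3 libraries held 60.6, 74.7 and 69.6 CPM (10.8-fold higher, log2 3.43 ± 0.21, adjusted p = 2.46e-12). With LPS they held 50.8, 27.8 and 43.9 CPM (6.44-fold higher, log2 2.69 ± 0.21, adjusted p = 1.99e-10). None of the libraries of these 3 groups overlapped those of IFNg alone. IL1b gave 10.2, 7.73 and 11.8 CPM, all above the IFNg libraries, but the change of 0.64 ± 0.21 did not pass the threshold (adjusted p = 0.39).

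The 6 groups therefore ran control, TNF, hypoxia, LPS, IL1b and IFNg from high to low in Mmp12, and each step of that order but the last passed edgeR's test, with adjusted p = 0.000598 for control over TNF, 0.00154 for TNF over hypoxia, 0.00289 for hypoxia over LPS and 2.88e-08 for LPS over IL1b. IL1b over IFNg missed the threshold, although their libraries did not overlap. Even the highest of the combined groups, TNF, stayed 1.74-fold below control. Mmp1b, which overlaps Mmp12 on the opposite strand over 157 coding bases, had 0 counts in every library. The libraries were made with a strand-marking kit per the labels, but whether counting used the strand is not given in the sources used here.

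The levels of some genes used as markers of other cells also differed between the groups, not always as Mmp12 did. The 8 osteoclast markers summed to 90.1 to 94.2 CPM in control, 33.0 to 36.5 with IFNg, 39.5 to 46.2 with IL1b, 54.4 to 70.1 with TNF, 49.2 to 63.8 with LPS and 24.4 to 35.9 with hypoxia, with Oscar at 0 in all libraries and Calcr at 0 in all groups but TNF. With hypoxia the osteoclast sum overlapped that with IFNg alone, whereas Mmp12 was higher with hypoxia. The members of the osteoclast list did not move alike. Ctsk, a lysosomal collagenase, averaged 16.9 CPM in control, 1.93 with IFNg, 6.56 with TNF and 1.62 with hypoxia, whereas Ocstamp averaged 0.224 CPM in control and 15.7 with IFNg, and Dcstamp 5.78 in control, 0.411 with IFNg and 18.7 with TNF. The 6 endothelial markers summed to 181 to 255 CPM in control, 38.6 to 61.9 with IFNg, 44.6 to 72.8 with IL1b, 62.8 to 73.7 with hypoxia, 100 to 116 with LPS and 145 to 187 with TNF, nearly all of it from Vwf and Kdr, while Emcn and Tie1 were at 0 in every library. Vwf averaged 211 CPM in control, 29.9 with IFNg, 97.1 with TNF and 59.6 with hypoxia. Kdr ran unlike Mmp12, at 14.4 CPM in control, 19.2 with IFNg, 66.6 with TNF and 7.27 with hypoxia. The part of the cells that these markers stand for in the Mmp12 result was not tested.

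Mmp14, also called MT1-MMP, is a membrane-anchored collagenase used by cells to cut the matrix at their surface. The gene (ENSMUSG00000000957) lies at chr14:54431612-54445364 on the plus strand of mm10. Its RefSeq promoter window (GRCm38.p6, chr14:54431348-54431647, plus strand) is shown because its transcript had the largest rise among the 7 tested genes:
Mmp14 promoter: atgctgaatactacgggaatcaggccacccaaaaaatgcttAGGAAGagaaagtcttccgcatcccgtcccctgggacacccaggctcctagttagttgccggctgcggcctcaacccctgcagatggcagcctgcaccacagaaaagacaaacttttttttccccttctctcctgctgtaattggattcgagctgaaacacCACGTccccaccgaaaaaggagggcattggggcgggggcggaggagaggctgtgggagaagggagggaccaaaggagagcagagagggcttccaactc
The capitals are 1 PEA3/ETS match from -209 to -204 and 1 hypoxia element match, read on the opposite strand, from -48 to -44. The NF-kappaB and AP-1 letters were not in this window.

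Mmp14 was near the limit of counting in control cells, with 0.706, 0.489 and 2.12 CPM, against a floor of 3 counts that corresponds to 0.151 to 0.255 CPM in these libraries. IFNg libraries were little different, at 1.20, 2.41 and 1.85 CPM (log2 0.72 ± 0.46, edgeR adjusted p = 0.297). That comparison turned on 1 library: without control replicate 3 the change was 1.56 with an adjusted p of 0.0144. TNF took the gene to 288, 226 and 285 CPM, above every library of the other groups. The rise over IFNg alone was 146-fold by group means, 7.20 ± 0.38 on the log2 scale (adjusted p = 7.43e-12). LPS libraries held 92.2, 82.9 and 49.8 CPM, a 41.2-fold rise (log2 5.37 ± 0.37, adjusted p = 1.54e-09). TNF and LPS libraries did not overlap, and Mmp14 was lower with LPS than with TNF by a tested log2 difference of -1.83 (adjusted p = 6.45e-05). Hypoxia left it at 3.05, 3.66 and 3.32 CPM, all above the IFNg libraries but without passing the test (log2 0.88 ± 0.40, adjusted p = 0.124).

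With IL1b, Mmp14 was the only one of the 8 genes called, at 5.59, 4.98 and 9.56 CPM, none overlapping the IFNg libraries (log2 1.87 ± 0.37, adjusted p = 0.0292). The call was lost with no filter on low counts (adjusted p = 0.128), with the replicate number as a block (0.0824), without any 1 of the 3 IFNg libraries (0.262, 0.0714 and 0.14 without replicates 1, 2 and 3) and without IL1b replicate 1 (0.0512) or 3 (0.221). The fold kept its direction in each of these, between 1.55 and 2.15 on the log2 scale. In the order of levels Mmp14 ran TNF, LPS, IL1b, hypoxia, IFNg and control, and the steps from TNF to LPS, LPS to IL1b and IL1b to hypoxia (adjusted p = 0.043) passed the test.

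Mmp13, a collagenase of interstitial collagen, had a pattern unlike Mmp14. The gene (ENSMUSG00000050578, chr9:7272514-7283331, plus strand) has a RefSeq promoter window at chr9:7272264-7272563 (GRCm38.p6, plus strand), shown for comparison with its cluster neighbour Mmp12:
Mmp13 promoter: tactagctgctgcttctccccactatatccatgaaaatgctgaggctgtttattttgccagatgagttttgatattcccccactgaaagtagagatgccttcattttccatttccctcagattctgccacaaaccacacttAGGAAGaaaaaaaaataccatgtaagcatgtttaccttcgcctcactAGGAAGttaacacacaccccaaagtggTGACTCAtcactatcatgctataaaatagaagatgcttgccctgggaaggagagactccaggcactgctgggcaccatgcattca
Its capitals are PEA3/ETS matches from -109 to -104 and from -62 to -57 and an AP-1 match from -35 to -29. The AP-1 letters were thus found close before the start of Mmp13 and of the downstream Mmp12 window, but not in the windows of Mmp14, Timp1, Timp2 or Timp3. The hypoxia element letters were not in the Mmp13 window.

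Hypoxia took Mmp13 to 93.1, 108 and 106 CPM from 11.4, 7.83 and 18.5 CPM with IFNg alone. All 3 hypoxic libraries lay above all other libraries of the series, and the mean rise was 8.11-fold (log2 3.02 ± 0.27, edgeR adjusted p = 2.6e-09). Hypoxia also exceeded the next highest group, TNF, by a log2 difference of 2.24 ± 0.26 (adjusted p = 6.92e-08). TNF libraries held 22.7, 23.9 and 18.2 CPM, and the smaller rise over IFNg was called (log2 0.78 ± 0.26, adjusted p = 0.0143). That call was lost with the library totals behind the RPKM values (log2 0.47, adjusted p = 0.122) and without IFNg replicate 1 (0.0571), IFNg replicate 2 (0.108) or TNF replicate 2 (0.0503). LPS libraries (11.5, 15.1 and 13.1 CPM) and IL1b libraries (10.4, 9.71 and 12.5 CPM) lay within the IFNg range. Control libraries held 14.7, 12.2 and 24.5 CPM, and the difference from IFNg was not called (log2 -0.45 ± 0.26, adjusted p = 0.231). Without IFNg replicate 3, the highest of its group, it became -0.83 with an adjusted p of 0.0242. Apart from the step from hypoxia to TNF, no step between neighbours in the order of Mmp13 levels passed the test.

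Mmp19, a secreted enzyme that cuts basement membrane components, ranged from 34.4 to 178 CPM over the 18 libraries. It lies at chr10:128790910-128800824 (ENSMUSG00000025355, plus strand) and overlaps Tmem198b on the other strand, with no shared coding bases. Control libraries held 51.6, 34.4 and 39.8 CPM and IFNg libraries 74.7, 78.3 and 82.8 CPM. The groups did not overlap, and Mmp19 rose 1.88-fold with IFNg (log2 0.91 ± 0.16, edgeR adjusted p = 6.07e-05). LPS added a further 2.07-fold, to 147, 163 and 178 CPM (log2 1.05 ± 0.16, adjusted p = 1.07e-05). These were the 3 highest of all libraries, and LPS exceeded the next group, TNF, by 0.59 on the log2 scale (adjusted p = 0.00522). TNF gave 93.4, 126 and 105 CPM (log2 0.46 ± 0.16 over IFNg, adjusted p = 0.0175), a call lost with the library totals behind the RPKM values (log2 0.14, adjusted p = 0.488) and without IFNg replicate 1 (0.0627) or TNF replicate 2 (0.116). Levels with hypoxia (87.5, 74.5 and 109 CPM) and IL1b (82.5, 93.5 and 103 CPM) overlapped those with IFNg alone and were not called.

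Mmp9, a secreted gelatinase, was barely counted and varied more within groups than between them. It lies at chr2:164940780-164955850 (ENSMUSG00000017737, plus strand). Its highest library was hypoxia replicate 2 at 5.36 CPM and its lowest TNF replicate 3 at 0. Group means ran from 1.84 ± 0.636 CPM with LPS to 2.70 ± 0.459 CPM with IFNg (SD, n = 3). No comparison was called, the adjusted p being 0.997 for IFNg against control and 0.776 to 1.0 for the 4 additions, and the standard error of each log2 fold change was near 0.96. Libraries of 1 group spread widely, from 0.550 to 5.20 CPM in control.

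Among the inhibitors, Timp2 had the highest transcript level per length and the clearest changes. The gene (ENSMUSG00000017466) lies on the minus strand at chr11:118301069-118355740 and overlaps Cep295nl on the same strand, also with no shared coding bases. The windows of the other inhibitors did hold matches, 3 PEA3/ETS and 1 hypoxia element for Timp1 and 1 PEA3/ETS for Timp3. The Timp2 RefSeq window (GRCm38.p6, chr11:118355362-118355661, minus strand) is shown because none of the 5 motifs was found in it, so no letters are capitals:
Timp2 promoter: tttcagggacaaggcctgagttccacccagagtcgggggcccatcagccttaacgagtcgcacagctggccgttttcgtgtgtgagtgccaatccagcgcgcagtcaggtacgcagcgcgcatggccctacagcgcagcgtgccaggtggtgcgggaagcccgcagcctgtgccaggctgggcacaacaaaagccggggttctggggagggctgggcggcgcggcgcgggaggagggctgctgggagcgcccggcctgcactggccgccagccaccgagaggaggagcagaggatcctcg
It was rich in G and C (68.7% of bases), against 38.7% and 40.7% in the Mmp12 windows, 43.7% for Mmp13 and 56.0% for Mmp14. The Timp1 window held 55.0% and the Timp3 window 67.0%.

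Control libraries held 116, 172 and 179 CPM of Timp2 and IFNg libraries 57.1, 73.8 and 76.4 CPM, without overlap. It fell by 1.17 on the log2 scale with IFNg (SE 0.23, edgeR adjusted p = 0.000548), or 2.25-fold. TNF lowered it further, to 17.5, 18.8 and 35.6 CPM (log2 -1.53 ± 0.24 against IFNg, adjusted p = 1.76e-05). LPS did so too, to 34.5, 27.3 and 26.1 CPM (log2 -1.24 ± 0.24, adjusted p = 0.000525). All 6 of these libraries lay below every library of the other groups. Levels with hypoxia (63.9, 56.3 and 64.7 CPM) and IL1b (52.5, 51.6 and 82.9 CPM) overlapped IFNg alone and were not called (adjusted p = 0.678 and 1.0). TNF and LPS did not differ from each other beyond their spread (adjusted p = 0.415).

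Timp1, the inhibitor of most secreted metalloproteinases, was low in every group. It lies at chrX:20870166-20874735 (ENSMUSG00000001131, plus strand), inside the gene Syn1 on the other strand, with no shared coding bases. Control libraries held 0.504, 0.917 and 3.87 CPM and IFNg libraries 4.53, 5.53 and 6.83 CPM. Timp1 was called higher with IFNg (log2 1.68 ± 0.55, edgeR adjusted p = 0.0255), but the call was lost without control replicate 1 (0.123), control replicate 2 (0.115), IFNg replicate 2 (0.0506) or IFNg replicate 3 (0.0882), and with only those 2 groups in the model (0.0629). Without control replicate 3, the highest of its group, the change was 2.99 with an adjusted p of 0.000232. Hypoxia libraries were the highest, at 8.15, 8.94 and 11.7 CPM, and all lay above the IFNg libraries, yet the rise did not pass the test (log2 0.77 ± 0.52, adjusted p = 0.316). Against control the hypoxia group was higher by 2.45 ± 0.56 (adjusted p = 0.000811). TNF (4.45, 3.55 and 5.10 CPM), LPS (2.72, 2.86 and 6.97 CPM) and IL1b (4.44, 5.11 and 5.44 CPM) overlapped IFNg alone.

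Timp3 was at 0 in 14 of 18 libraries and was not tested. Its counts in the other 4 were 15 in LPS replicate 3 (1.04 CPM), 9 in hypoxia replicate 2, 8 in TNF replicate 1 and 2 in IFNg replicate 2. The gene (ENSMUSG00000020044, chr10:86300372-86349506, plus strand) overlaps Syn3 on the other strand, and no group had counts in more than 1 library, so no change between groups can be read from it.

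Counting libraries rather than p-values, the groups did not overlap for 4 of the 7 tested genes with IFNg against control (38.2% of all genes), 4 with TNF (53.4%), 4 with LPS (33.7%), 4 with hypoxia (43.2%) and 2 with IL1b (13.4%). With hypoxia the 4 were Mmp12, Mmp13, Mmp14 and Timp1, and with IL1b they were Mmp12 and Mmp14.

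Levels of different genes were compared per length, as CPM per kilobase of the deposited gene width, which is mostly coding length. On this scale the 5 metalloproteinases summed to 162 ± 5.22 in control, 64.5 ± 5.89 with IFNg, 76.8 ± 9.81 with IL1b, 173 ± 14.0 with hypoxia, 175 ± 3.03 with LPS and 287 ± 19.4 with TNF (SD, n = 3). With TMM scaling the sum with LPS or hypoxia was thus close to that of control, but the 5 genes held other shares of it. The sums were not computed with the library totals behind the RPKM values. Those totals moved the median log2 change of all genes by -0.152 (IFNg against control), -0.246 (hypoxia against IFNg) and -0.077 (LPS against IFNg). How close the sums lie therefore depends on the scaling. Mmp12 made up 75.2% ± 5.10 of the sum in control and 6.01% ± 0.564 with IFNg, where Mmp19 made up 77.2% ± 3.66. IL1b kept Mmp19 at 76.6% ± 3.28. With TNF the largest part was Mmp14 at 46.1% ± 3.78, with Mmp12 at 24.3% and Mmp19 at 24.0%. LPS gave 58.7% Mmp19, 21.3% Mmp14 and 14.2% Mmp12. Under hypoxia Mmp13 led with 41.5% ± 2.21, followed by Mmp19 at 32.9% and Mmp12 at 24.0%. Shares add to the whole, so a rise of one lowers the others.

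**Figure D3:**
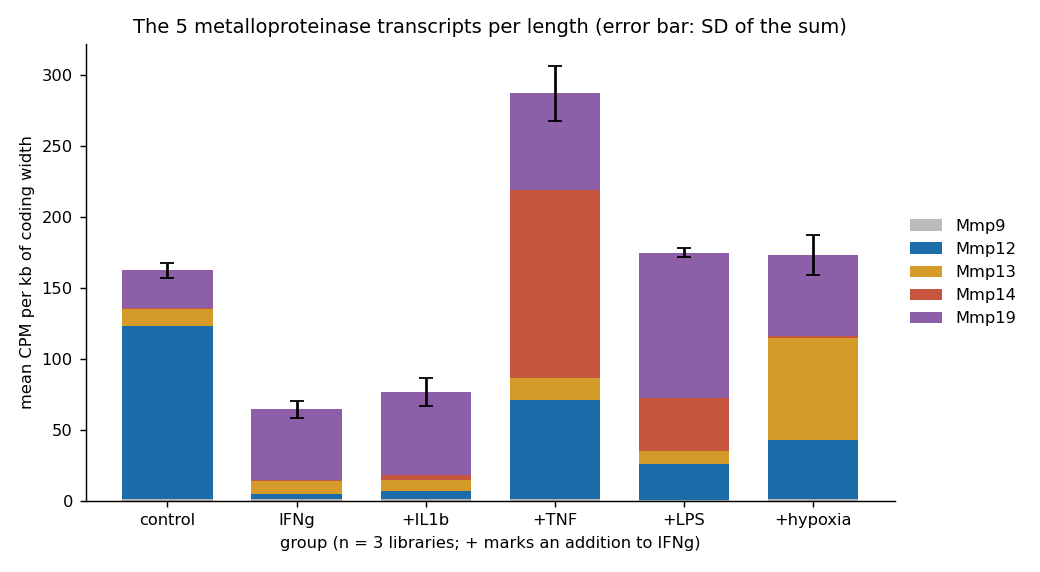
Stacked mean CPM per kilobase of coding width (linear axis from 0) of Mmp9, Mmp12, Mmp13, Mmp14 and Mmp19 in each group of 3 libraries, with the SD of the sum as an error bar. Control is mostly Mmp12, IFNg alone and with IL1b mostly Mmp19, TNF has Mmp14 as its largest block, and hypoxia has the largest Mmp13 block (71.9 of 173).

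Within a library, the ratio of a protease to an inhibitor transcript does not depend on how libraries are scaled. The ratio of Mmp14 to Timp2 per kilobase, with 0.5 counts added to each gene, was compared because Timp2 is the inhibitor that binds Mmp14. On the log2 scale it was -8.91, -9.97 and -7.98 in control and -7.14, -6.52 and -6.95 with IFNg, so Timp2 transcripts far outnumbered those of Mmp14. TNF reversed the sign, with 2.44, 1.99 and 1.40 in the 3 libraries. LPS brought the pair near balance at -0.18, 0.00 and -0.67, whereas hypoxia (-5.97, -5.53 and -5.87) and IL1b (-4.83, -4.96 and -4.71) stayed far on the Timp2 side. The mean differences from IFNg were 8.81 for TNF, 6.59 for LPS, 2.03 for IL1b and 1.08 for hypoxia, none with overlapping libraries. In each of these the exact two-sided permutation test gave p = 0.1, the smallest that 3 against 3 allows, and 0.158 after adjustment over 30 ratio comparisons, so none can pass 0.05.

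The ratio of Mmp12 to Timp1 had a mean log2 value of 5.91 in control (7.03, 6.41 and 4.29) and -1.22 with IFNg (-1.02, -1.15 and -1.50). It was 3.30 with TNF, 1.97 with LPS, 1.43 with hypoxia and -0.44 with IL1b. Mmp13 to Timp1 was highest in control (mean 2.52) and hypoxia (2.22) and near balance with IFNg (-0.11) and IL1b (-0.09). Mmp19 to Timp1 stayed positive in all groups, from 1.87 with hypoxia to 4.05 with LPS. In all, 19 of 30 ratio comparisons had libraries that did not overlap, with the exact test at its smallest p of 0.1. The share without overlap among other gene pairs was not computed. For single genes it was 13.4% (IL1b) to 53.4% (TNF) of all genes. The 30 comparisons are not separate, because they reuse the same genes and the IFNg libraries. Because Timp1 rests on 0.504 to 11.7 CPM, ratios to it carry its counting error.

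**Figure D4:**
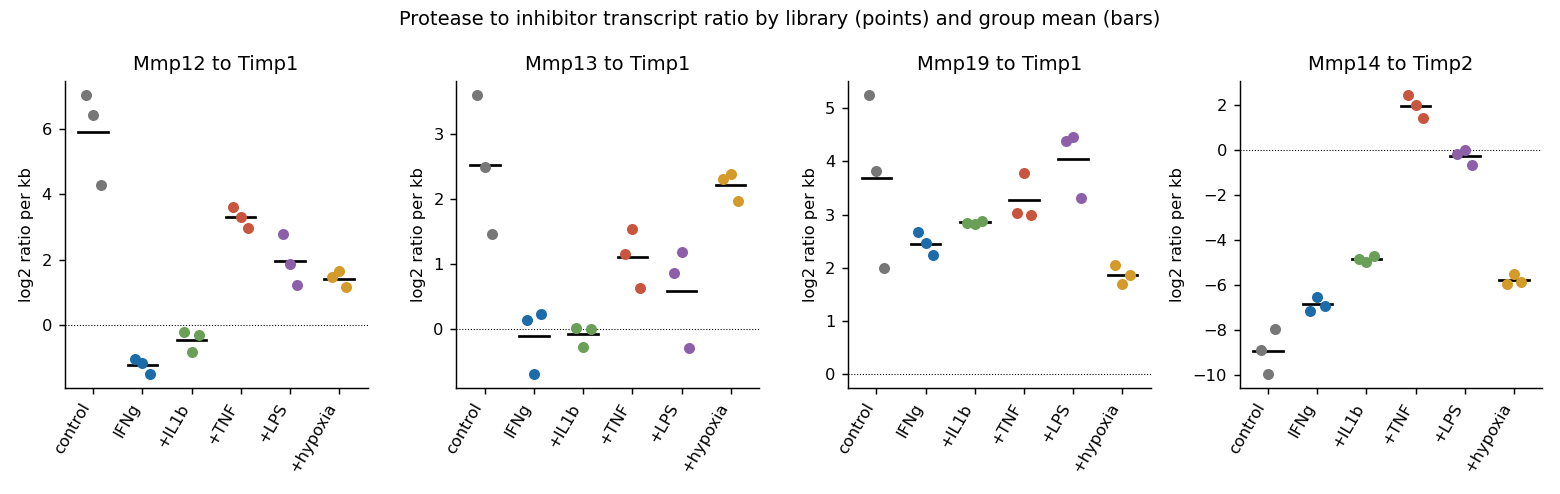
Log2 ratios per kilobase of Mmp12, Mmp13 and Mmp19 to Timp1 and of Mmp14 to Timp2 in each library (points), with group means as bars and a dotted line at 0 where both transcripts are equal per length. Mmp14 to Timp2 lies above 0 in the 3 TNF libraries, near 0 with LPS and at -4.71 or below in all other groups.

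Other metalloproteinases were mostly silent. Of 18 further Mmp genes, 5 were tested. With IFNg 1 rose and 2 fell (23.6% of all genes were called), and with TNF 1 rose and 2 fell (44.7%). With hypoxia 1 rose and 1 fell (25.2%). None was called with IL1b (0.303%) or LPS (20.3%) by edgeR (0 and 1 at an unadjusted p under 0.05, 0 in both by DESeq2). Mmp25, a membrane-linked enzyme of leukocytes, went from 0.913 ± 0.613 CPM in control to 29.2 ± 4.08 with IFNg (log2 4.99 ± 0.31, adjusted p = 5.95e-13). It rose again to 75.5 ± 18.0 CPM with TNF (log2 1.37 ± 0.23, adjusted p = 1.87e-05) and to 65.5 ± 8.01 with hypoxia (log2 1.17 ± 0.23, adjusted p = 0.000355). Mmp8, the neutrophil collagenase, fell from 27.5 to 4.44 CPM with IFNg (log2 -2.64 ± 0.42, adjusted p = 1.85e-05) and to 1.74 CPM with TNF (log2 -1.31 ± 0.43, adjusted p = 0.0146). The TNF call was lost without IFNg replicate 2 or 3 or TNF replicate 3 and with only those 2 groups in the model (adjusted p = 0.118). The 12 neutrophil and granulocyte precursor markers, Mmp8 among them, summed to 110 to 170 CPM in control, 110 to 132 with IFNg, 87.0 to 102 with IL1b, 68.3 to 95.9 with hypoxia, 28.9 to 44.4 with LPS and 11.0 to 15.0 with TNF, and their part in the Mmp8 result was not tested. Mmp27 had 288 counts over the control libraries and 1 over the IFNg libraries, a ratio of 278 with a 95% counting interval of 49.4 to 11000 (edgeR adjusted p = 0.00886). Mmp28 fell from 43 counts with IFNg to 1 with TNF (ratio 38.9, interval 6.62 to 1570, adjusted p = 0.0422) and 0 with hypoxia (at least 11.2-fold lower, at a floor of 3 counts over the group, adjusted p = 0.0337). Both Mmp28 calls were lost without IFNg replicate 2 or 3, without any 1 library of the added agent and with no filter on low counts (adjusted p = 0.0818 for TNF and 0.0518 for hypoxia), and the TNF call also with the replicate number as a block (0.0688). Mmp2, the gelatinase precursor that Mmp14 and Timp2 act on, averaged 0.099 to 0.898 CPM and was not called. Of 3 other inhibitors only Reck, a membrane-anchored inhibitor, was tested, and it did not pass in any of the 5 comparisons by edgeR, with 0 at an unadjusted p under 0.05 and 0 by DESeq2. Timp4 was at 0.

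The plasminogen system, which supplies plasmin to open metalloproteinase precursors, had 11 of 13 listed genes tested. Plg, the gene of plasminogen itself, had 0 counts in every library. IFNg raised 2 and lowered 3 (23.6% of all genes were called), and TNF raised 5 and lowered 2 (44.7%). LPS raised 4 (20.3%), and hypoxia raised 4 and lowered 1 (25.2%). None was called with IL1b (0.303%) by edgeR (1 at an unadjusted p under 0.05, 0 by DESeq2). Plau, the urokinase activator, rose with IFNg from 11.7 ± 4.14 to 91.6 ± 6.15 CPM (log2 2.97 ± 0.23, adjusted p = 1.65e-10), and fell with TNF to 40.9 ± 11.1 (log2 -1.16, adjusted p = 6.62e-05) and with hypoxia to 31.9 ± 6.96 (log2 -1.52, adjusted p = 7.07e-06). Its receptor Plaur took the other direction with IFNg, TNF and hypoxia, and rose with LPS. Plaur averaged 28.5 CPM in control, 15.5 with IFNg, 244 ± 40.9 with TNF (log2 3.97 ± 0.17, adjusted p = 2.57e-16), 78.0 with LPS and 52.2 with hypoxia, all 4 changes called. Plau with LPS was at 123 ± 5.69 CPM, above IFNg alone but not called (log2 0.43, edgeR adjusted p = 0.161). Serpinb2, an inhibitor of the activators, had 0 counts with IFNg and 253 over the TNF libraries, at least 93.2-fold higher at a floor of 3 counts over the group (adjusted p = 0.00152). Anxa2, a plasminogen-binding surface protein, fell from 957 to 512 CPM with IFNg (log2 -0.90, adjusted p = 2.04e-07). Against IFNg alone it rose to 1363 CPM with TNF (log2 1.41, adjusted p = 2.88e-11), 1429 with hypoxia (log2 1.48, adjusted p = 7.6e-11) and 791 with LPS (log2 0.63, adjusted p = 7.46e-05).

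Convertases and shedding regulators had 4 of 6 genes tested. Of these, 2 were higher and 2 lower for IFNg (23.6% of all genes were called) and 2 higher for TNF (44.7%). LPS had 1 higher (20.3%) and hypoxia 1 higher (25.2%). None was called for IL1b (0.303%) by edgeR (0 at an unadjusted p under 0.05, 0 by DESeq2). Furin, which cleaves the Mmp14 precursor, fell from 292 to 213 CPM with IFNg and rose to 457 ± 34.4 with TNF (log2 1.10 ± 0.11, adjusted p = 5.64e-09) and 329 ± 32.4 with hypoxia (log2 0.63, adjusted p = 0.00011, and 0.38 with the library totals behind the RPKM values). Rhbdf2, a partner of Adam17, rose with IFNg from 67.5 to 105 CPM (adjusted p = 0.000484), with TNF to 284 (log2 1.43 ± 0.13, adjusted p = 9.57e-10) and with LPS to 166 (log2 0.66, adjusted p = 0.000461). Rhbdf1 went from 139 counts over the control libraries to 4 with IFNg (adjusted p = 0.0339), a call lost without any 1 of the control libraries, without IFNg replicate 2 or 3 and with no filter on low counts (0.0748).

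Of 52 ADAM and ADAMTS genes 12 were tested. With IFNg 2 rose and 3 fell (23.6% of all genes were called), and with TNF 3 rose and 2 fell (44.7%). With IL1b 1 rose (0.303%), with LPS 2 rose and 2 fell (20.3%), and with hypoxia 4 rose and 1 fell (25.2%). Adam8, a sheddase of leukocytes, averaged 579 ± 31.0 CPM with IFNg, 2549 ± 242 with TNF (log2 2.14 ± 0.11, adjusted p = 8.55e-15), 1892 ± 89.3 with LPS, 1349 ± 61.1 with hypoxia and 835 ± 85.0 with IL1b, and rose in all 4. IFNg alone was below the 891 CPM of control (adjusted p = 4.65e-05). The IL1b call (adjusted p = 0.016) was lost without IFNg replicate 1 or 2 or IL1b replicate 2 or 3. Adam17, the enzyme that releases TNF, fell from 516 to 367 CPM with IFNg (adjusted p = 0.000219) and rose from there to 876 CPM with TNF (log2 1.26 ± 0.10, adjusted p = 2.34e-11), 541 with LPS and 570 with hypoxia (log2 0.64, and 0.39 with the library totals behind the RPKM values). Adam15 rose with IFNg from 512 to 731 CPM (adjusted p = 0.00145) and was lower than IFNg alone with TNF (436 CPM, adjusted p = 7.85e-06) and with LPS (550 CPM, adjusted p = 0.0119, but 0.0935 without LPS replicate 3). Adam19 fell from 9.43 CPM to 3.17 with TNF (adjusted p = 0.00167) and 3.05 with LPS (adjusted p = 0.00273), and rose to 19.1 CPM with hypoxia (log2 1.02, adjusted p = 0.0448). The hypoxia call was lost with the library totals behind the RPKM values (0.129) and without any 1 of the IFNg libraries or hypoxia replicate 1 or 3. Adam22 had 55 counts over the control libraries and 0 with IFNg (at least 17.7-fold lower, adjusted p = 0.0412), and Adamts10 averaged 19.5 CPM with IFNg and 4.34 with hypoxia (adjusted p = 0.0469). The Adam22 and Adamts10 calls were each lost when any 1 library of the groups compared was left out and with no filter on low counts (0.0834 and 0.0859), and the Adam22 call also by DESeq2 (0.11).

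Proteins that hold, bind or clear metalloproteinases had 10 of 12 genes tested. Of these, 1 was higher and 3 lower for IFNg (23.6% of all genes were called), and 3 higher and 2 lower for TNF (44.7%). IL1b had 1 lower (0.303%), LPS 2 higher and 1 lower (20.3%), and hypoxia 4 higher (25.2%). Thbs1, a matrix protein that binds metalloproteinases for uptake, rose from 81.4 ± 9.29 CPM to 2552 ± 544 with TNF (log2 4.97 ± 0.16, adjusted p = 9.29e-19) and 713 ± 60.9 with LPS (log2 3.13, adjusted p = 1.17e-14). It also rose to 192 CPM with hypoxia (log2 1.24, adjusted p = 1.8e-07). With IL1b it fell to 50.1 ± 4.26 (log2 -0.70, adjusted p = 0.0187), a call lost without IFNg replicate 2 or 3 or IL1b replicate 1 or 3. Bsg, a surface protein known as an inducer of metalloproteinases, rose from 254 to 1269 ± 143 CPM with hypoxia (log2 2.32 ± 0.16, adjusted p = 5.09e-11) and 701 CPM with TNF (log2 1.46, adjusted p = 2.18e-08). Cd44, which anchors Mmp14 at the cell front, averaged 191 CPM with IFNg and rose to 480 with TNF (log2 1.33 ± 0.13, adjusted p = 1.32e-09), 277 with LPS and 320 with hypoxia. Lcn2, a partner of Mmp9, fell from 10.8 to 3.62 CPM with TNF (adjusted p = 0.00296). Spp1, a secreted substrate, fell from 3118 to 646 CPM with IFNg (log2 -2.27, adjusted p = 5.05e-13), and from there to 265 with TNF (log2 -1.28, adjusted p = 1.22e-08) and 415 with LPS (log2 -0.64, adjusted p = 0.000868). It rose to 909 CPM with hypoxia (log2 0.49, adjusted p = 0.00745), a call lost with the library totals behind the RPKM values (0.171). The integrin chains Itgav and Itgb3 moved apart with IFNg, Itgav up from 119 to 210 CPM (adjusted p = 0.00133) and Itgb3 down from 8.90 to 1.71 (adjusted p = 0.0414). The Itgb3 call was lost without control replicate 1 or 2 or IFNg replicate 1 or 3.

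Of 17 matrix proteins that metalloproteinases cut, 14 were tested. IFNg had 4 lower (23.6% of all genes were called), TNF 3 higher (44.7%) and LPS 2 higher (20.3%). None was called for IL1b (0.303%) or hypoxia (25.2%) by edgeR (1 in each at an unadjusted p under 0.05, 0 in both by DESeq2). For hypoxia, edgeR called 1 with the replicate number as a block and 1 with only the 2 groups in the model. The basement membrane collagen chain Col4a1 went from 279 counts over the control libraries to 9 with IFNg (adjusted p = 0.0064). Its partner Col4a2 fell from 8.02 CPM in control (adjusted p = 0.000693) and rose from 1.33 ± 0.897 CPM with IFNg to 15.1 ± 3.17 with TNF (log2 3.51 ± 0.57, adjusted p = 1.06e-05) and 7.01 ± 2.94 with LPS (log2 2.40, adjusted p = 0.00188). The laminin chain Lamc1 fell from 108 to 57.5 CPM with IFNg (adjusted p = 0.000231) and rose to 427 ± 69.6 with TNF (log2 2.89 ± 0.18, adjusted p = 1.47e-12) and 147 with LPS.

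Over the 18 libraries, the genes whose log2 CPM most resembled each member were found by Pearson correlation, given as a description because the 6 groups shape it. Mmp14 lay closest to Sod2 (r = 0.98), Procr (0.98) and Htatip2 (0.98), Mmp12 to Bhlhe41 (0.96), Klf9 (0.91) and Vwf (0.91), and Mmp13 to Aldoc (0.94), Lmf1 (0.94) and Xkr9 (0.93). Timp2 resembled Serinc3, Svil and Igfbp4 (each 0.95) and Mmp19 resembled Naa25 (0.93), Heatr1 (0.91) and Vrk2 (0.91). Timp1 (Nos1, Zbtb5 and Sp4, each 0.88) and Mmp9 (Scai, Arhgap29 and Rps27l, each 0.76) had weaker neighbours, and both were low in counts. Between members the most negative values were Mmp14 with Timp2 (-0.87) and Mmp19 with Timp2 (-0.83), and the highest was Mmp14 with Mmp19 (0.72).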

How the data were processed

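RNA-seq gene counts from 18 libraries (6 groups of 3, grouped by the treatment labels) were analysed as the authors deposited them. Reads were aligned with GSNAP to mm10, per the submitters' processing notes; no source used here names the counting tool or its strand setting. Each deposited file also held a gene width, mostly a coding length (86.7% are multiples of 3), and RPKM values, which the authors made from the counts; these served only to derive the library totals of 1 alternative. Ensembl IDs were matched to GENCODE symbols (22457 of 22598).

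Tests used edgeR 4.0.16 (quasi-likelihood, robust, TMM, default filterByExpr, 1 model of 18 libraries, Benjamini-Hochberg, threshold 0.05) in R 4.3.3. The code was also run on simulated data with the same spread for all genes and few genes changed. These libraries differ from that setting, so the run checks the code only. DESeq2 1.42.0 was an alternative. Levels are CPM on TMM-scaled totals; ratios used exact permutation tests (scipy 1.17.1). The counting intervals cover counting error only. Replicates differed by 11.9 to 50.6 times sampling noise (chi-square per degree of freedom), so none was a duplicate.

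The 8 genes and all lists were chosen with earlier results of these data known. All 8 are named; in each list and comparison the called gene with the largest change in each direction is named, with 6 more (Mmp8, Plaur, Furin, Cd44, Adam17 and Lamc1) named for their roles after their values were seen, and the values of 1 listed gene are not reported here. Alternatives were other scalings, DESeq2, no filter, a replicate block, 2 groups only and leaving out each library; those for the named list genes were added after seeing the data. RefSeq windows were matched for 6 of the 8 genes, not for Mmp9 and Mmp19. The lists also included 7 dendritic cell markers, which summed to 5.32 to 5.99 CPM in control and 30.6 to 147 in the other groups, and 6 mast cell and basophil markers, at 0.672 to 5.05 CPM. Most of the dendritic sum was Clec9a (mean 0.24 CPM in control, 83.9 with IFNg, 120 with hypoxia) and, with TNF, Ccr7 (37.5 CPM). From control to IFNg, Xcr1 (0 to 4.31), Zbtb46 (0 to 0.296) and Flt3 (1.78 to 1.86) were higher. Siglech (1.35 to 0.765), Ccr7 (1.94 to 1.14) and Cd209a (0.242 to 0) were lower.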

Additional observations from a re-analysis of the deposited data

How the results depend on the processing

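For the 7 tested genes, 384 of 420 values under an alternative kept their direction and their side of the threshold, 19 lost a call, 2 gained one and 15 changed sign, none of them a called result. The calls of Mmp12 (IFNg, TNF, LPS and hypoxia), Mmp14 (TNF and LPS), Mmp13 (hypoxia), Mmp19 (IFNg and LPS) and Timp2 (IFNg, TNF and LPS) held in each of the 12 alternatives run. Of the counts over lists of related genes, 201 of 210 stayed within 1.5 times the reported one, and 12 of 67 named results on such genes lost their call in at least 1 setting, with none reversed. With the library totals behind the RPKM values the median of all genes moved on the log2 scale, by -0.321 with TNF, -0.246 with hypoxia, -0.152 with IFNg alone, -0.077 with LPS and 0.004 with IL1b, the members called with TNF numbered 3, and the uncalled Mmp9 (IFNg, -0.144) and Mmp19 (hypoxia, -0.043) changed sign. With the replicate number as a block, Mmp9 with IFNg was -0.036 and 0 members were called with IL1b, as with no filter on low counts (0). The titles number the libraries M1, M2 and M3, each number with 1 library in every group, and nothing says what the numbers mark. The main model did not use these numbers as a block. Of 45 same-number pairs, 9 had deviations correlated over 0.1 (-0.095 to 0.233), and 24 correlated best with their own number among 3. All 3 pairs of IFNg against control, LPS against IFNg and hypoxia against IFNg were among the 24. This is a hint of pairing from the data and not the design. The block also took the matrix substrates called with hypoxia from 0 to 1, and moved no other count of called genes by over 1.5 times. All genes called with IL1b numbered 79 with DESeq2, 68 with only those 2 groups in the model and 15 to 35 with 1 library left out. Leaving out 1 library gave 3 to 5 members called with IFNg, 3 to 5 with TNF and 0 to 1 with IL1b. It also moved uncalled log2 changes across 0: Mmp9 from -0.459 to 0.951 (IFNg), -1.314 to 0.251 (TNF), -0.983 to 0.174 (IL1b) and -1.389 to 0.254 (hypoxia), and Mmp13 from -0.46 to 0.17 (IL1b) and -0.175 to 0.455 (LPS). Among log2 ratio differences, Mmp9 to Timp1 ranged from -3.004 to 0.656 (TNF), -0.784 to 0.212 (IL1b) and -0.471 to 0.319 (LPS), Mmp13 to Timp1 from -0.269 to 0.199 (IL1b), and Mmp14 to Timp3 from -0.374 to 0.657 (IFNg) and -0.811 to 1.361 (hypoxia). The cause was not tested. Timp3 was at 0 in 14 of 18 libraries, and the part of depth in this was not tested. Mmp9 (92 to 149 counts per group) and Timp1 (89 to 380) had more counts, and how much of their spread is counting error was not tested.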
